A study of Mus musculus with 8 samples.

Results

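Genes of immune checkpoint ligands and of immune evasion were followed in 4 primary cell lines of murine pancreatic ductal adenocarcinoma (PDAC), numbered #1, #3, #5 and #10. The group held 10 genes listed by symbol, Vtcn1, Cd274, Pdcd1lg2, Cd276, Nectin2, Pvr, Lgals9, Cd47, Ceacam1 and Nt5e, and all 10 were found among the 34478 symbols of the deposited table. The lines were established from tumor pieces of mice that carried the alleles Ptf1awt/Cre and Trp53loxP/loxP among others, and treated and control libraries share the whole genotype. Cre is driven by the Ptf1a locus, which is active in the pancreas, and removes Trp53 there. Each line was treated for 48 h with trametinib, an inhibitor of MEK, at its own IC50, or with the solvent DMSO, and gave 1 library per treatment, 8 in all. The dose of each line, the age of the mice and whether the lines came from separate mice are not given in the sources used here. P-values for trametinib therefore weigh its change against the spread of that change across these lines. Differences in level between lines are taken out by pairing within each line.

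Checkpoint ligands are surface or secreted proteins through which a cell restrains T cells, NK cells or macrophages. Members of the B7 family bind receptors on T cells, the nectins Nectin2 and Pvr bind the inhibitory receptor TIGIT and the activating receptor CD226, Cd47 signals to phagocytes, and Nt5e makes the suppressive metabolite adenosine. Many of these genes respond to interferon, and tumor cells use several of them to escape immune attack. Here their RNA was measured in cultured tumor cells, and protein at the surface was not.

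Sequence upstream of the start was searched because several of these genes moved together, and the stretches that hold a match to the core letters bound by interferon regulatory factors are printed. RefSeq windows of 250 bases before the start were found for 9 of the 10 genes, Pvr being the exception, and 4 motifs were searched on both strands. The core AANNGAAA was found for 4 of the 9 genes, Vtcn1, Lgals9, Cd274 and Pdcd1lg2, and in 21.3% of all 32851 RefSeq windows of that length. The AP-1 letters TGANTCA (6.75% of all windows) and the GAS letters TTCNNNGAA (7.02%) were found for 0 of the 9, and the ETS letters CCGGAAG (6.91%) for 2, Nectin2 and Cd47. The start used is that of RefSeq, which can differ from the gene span in GENCODE given below. The windows of Nectin2, Cd47, Cd276 and Nt5e lie inside those spans, and that of Lgals9 overlaps its span in part. Each sequence below reads 5′ to 3′ on the strand of its gene, on GRCm38.p6, and capitals mark the core on either strand. Vtcn1 lies on the plus strand with its window at chr3:100825209-100825458, Pdcd1lg2 on the plus strand at chr19:29410669-29410918, and Lgals9 on the minus strand at chr11:78984925-78985174. For Cd274, on the plus strand, the 30 bases at chr19:29367252-29367281 around the match are shown, which lie in an exon of the neighbouring gene Plgrkt.

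Vtcn1: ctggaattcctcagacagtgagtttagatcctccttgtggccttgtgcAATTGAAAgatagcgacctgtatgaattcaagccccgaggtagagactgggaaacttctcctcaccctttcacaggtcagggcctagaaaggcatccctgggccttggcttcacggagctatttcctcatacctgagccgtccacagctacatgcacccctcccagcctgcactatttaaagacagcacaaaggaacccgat
Lgals9: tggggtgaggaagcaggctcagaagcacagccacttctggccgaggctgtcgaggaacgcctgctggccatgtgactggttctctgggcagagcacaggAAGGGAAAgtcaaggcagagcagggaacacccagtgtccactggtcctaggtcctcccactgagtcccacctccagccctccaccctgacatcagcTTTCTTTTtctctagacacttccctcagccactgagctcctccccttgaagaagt
Pdcd1lg2: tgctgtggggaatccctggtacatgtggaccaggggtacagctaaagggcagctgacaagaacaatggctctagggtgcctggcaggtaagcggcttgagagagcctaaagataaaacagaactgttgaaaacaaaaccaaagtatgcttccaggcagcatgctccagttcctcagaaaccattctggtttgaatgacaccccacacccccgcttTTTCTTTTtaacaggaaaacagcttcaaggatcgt
Cd274: ccgaagcctagTTTCGTTTtttcttaaact

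The match of Vtcn1 lies 202 to 195 bases before its start, that of Cd274 175 to 168 bases, and that of Pdcd1lg2 35 to 28 bases. Lgals9 holds 2 matches, at 151 to 144 and at 55 to 48 bases before its start. A match is a description of these letters and was not tested as a binding site.

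Libraries held 30680091 to 36385719 normalized counts, which is roughly 29400000 to 46000000 reads. A count of 3 reads, used as a floor, came to 2.32 to 3.72 normalized counts, for counting error only. The targets of MEK signaling Dusp6 and Spry4 were lower with trametinib in 4 of 4 lines, by log2 values of -2.51 and -3.61 (limma adjusted p = 0.00012 and 0.00021). Of the epithelial markers, Cdh1 stood at 19630 to 28487 normalized counts, while Epcam was listed at 0 in every library of lines #1, #5 and #10. Of 9 leukocyte markers in the table, Cd3e stood at 0.488 or lower and Lyz2 under the floor of 3 reads in every library, and the pan-leukocyte gene Ptprc at 4.05 to 17.2. The leukocyte markers summed to 1125 to 2675 normalized counts with DMSO and 1339 to 3811 with trametinib, largely through Cd14, and Csf1r was called higher. Over all genes tested, 27.3% were called higher and 25.6% lower. Of the other markers tested, 1 of 5 for fibroblasts was higher (Col1a1, at a log2 value of 3.60) and 5 of 6 epithelial markers were lower. Of endothelial markers Vwf was higher, at 2.14, while Tek, which averaged 8.21 normalized counts with DMSO and 250.4 with trametinib, passed the filter on low values (a mean of at least 10) only through trametinib and is given without a test. Summed over libraries with DMSO and with trametinib, fibroblast markers ranged from 94.9 to 366 and from 440.0 to 1258, with Lum at 0 throughout, endothelial ones from 38.1 to 82.1 and from 75.5 to 1779, and epithelial ones from 221215 to 348774 and from 112485 to 220925 normalized counts. Their part in the results was not tested. In bulk RNA, fewer cells of a type and less RNA per cell cannot be told apart.

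With trametinib, 6 of the 10 genes rose, 2 fell and 1 did not pass the test, and Pdcd1lg2 stayed below the filter on low values (a mean of at least 10 normalized counts). Genes that rose were Vtcn1, Cd274, Nectin2, Pvr, Lgals9 and Nt5e, and those that fell were Cd47 and Ceacam1. Over all 15888 genes tested in limma, 27.3% were called higher and 25.6% were called lower, with adjusted p-values below 0.05. The balance of these calls moved with the scaling, from 4341 higher and 4075 lower to 5333 and 3285 with libraries rescaled to equal totals and to 3848 and 4492 with libraries centred on the median. The median log2 fold change was 0.88 over the 9 genes that could be tested and 0.07 over all genes tested.

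**Figure D1:**
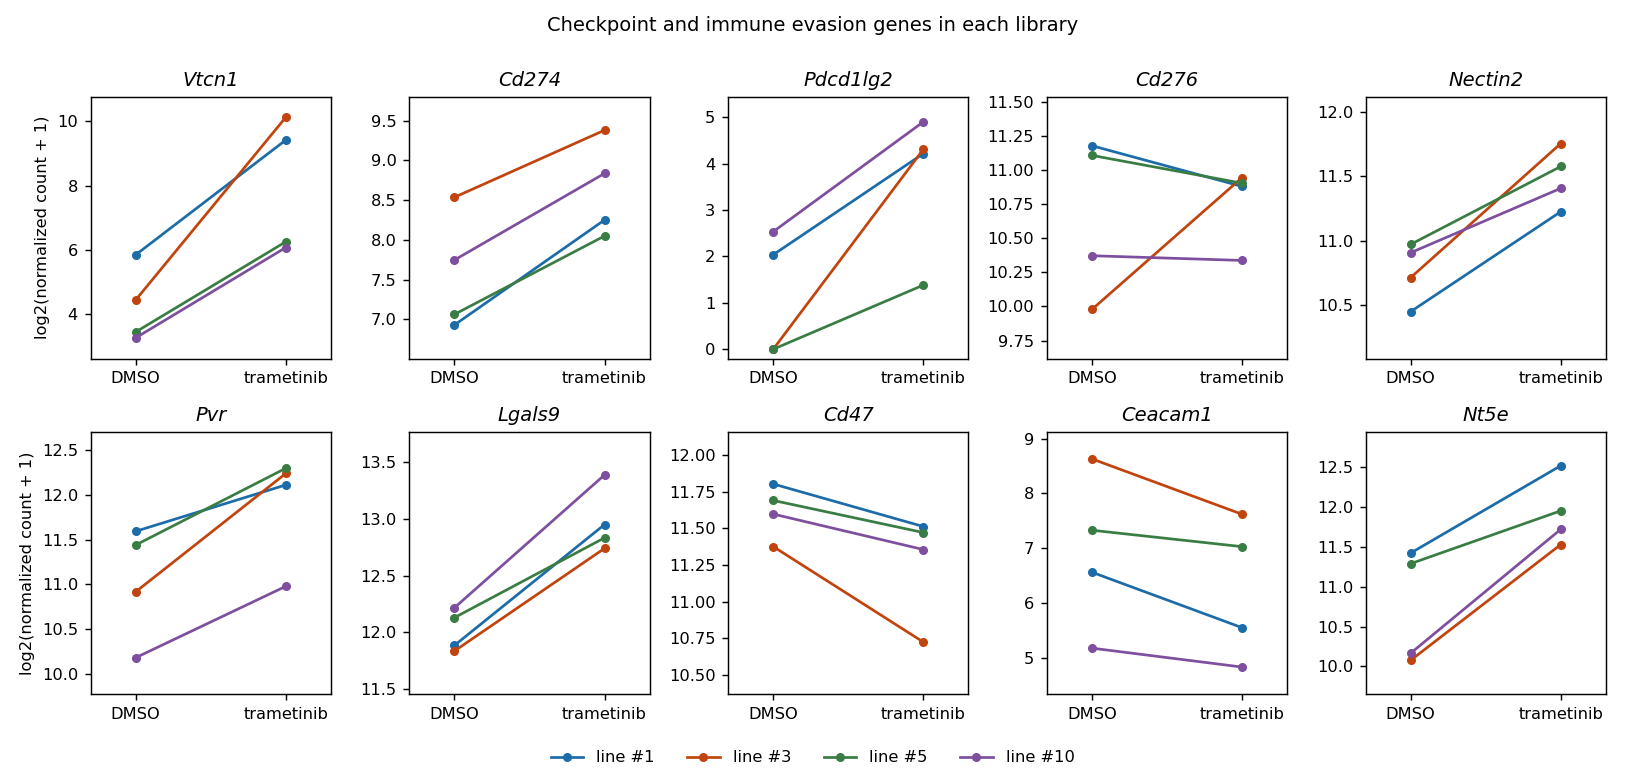
Level of each of the 10 genes as log2(normalized count + 1), with DMSO and with trametinib, 1 point per library and 1 coloured line per cell line; the vertical axes differ between panels. Vtcn1, Cd274, Pdcd1lg2, Nectin2, Pvr, Lgals9 and Nt5e went up in 4 of 4 lines (Pdcd1lg2 in line #5 only to 1.61, under the floor of 3 reads), Cd47 and Ceacam1 went down in 4 of 4, and Cd276 went up in line #3 only.

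Among the B7 family, Vtcn1, which encodes B7-H4, a restraint on T cell activation, changed most. It lies on chromosome 3 from 100825459 to 100896922 of GRCm38, on the plus strand. In the order of lines #1, #3, #5 and #10, it stood at 56.6, 20.8, 9.93 and 8.63 normalized counts with DMSO and at 681, 1112, 75.2 and 66.4 with trametinib. Every trametinib library was above every DMSO library, and lines #1 and #3 were higher than lines #5 and #10 under both treatments. On the log2 scale the rise was 3.71 in limma (standard error 0.49, 95% interval 2.54 to 4.89, adjusted p = 0.0013), a 13.1-fold change, and only 0.743% of the genes tested had a larger log2 fold change. Line #3 rose by 5.68 on that scale, against 3.57, 2.80 and 2.81 in lines #1, #5 and #10. The DMSO values of lines #5 and #10 correspond to about 8 and 9 reads, so the folds of these lines are imprecise. A trametinib effect that differs by line could not be tested, since each line has 1 library per treatment.

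Cd274 encodes PD-L1, the ligand of the T cell receptor PD-1, and lies on chromosome 19 from 29367455 to 29388095, on the plus strand. It stood at 121, 370.4, 133 and 214 normalized counts under DMSO (lines #1, #3, #5 and #10), and at 304, 665, 264 and 456 with trametinib. Each line rose, but the treatments overlapped across lines, because line #3 with DMSO was higher than lines #1 and #5 with trametinib. The log2 fold change was 1.06 in limma (standard error 0.14, adjusted p = 0.0014), with line values from 0.84 in line #3 to 1.32 in line #1. Without the line as a block, the adjusted p from limma was 0.089. In GENCODE, 511 exonic bases of Cd274 overlap the antisense gene AC119228.1, and whether strand was used in counting is not given in the sources used here.

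Pdcd1lg2 encodes PD-L2, the other ligand of PD-1, and lies 22823 bases from Cd274, on chromosome 19 from 29410919 to 29471161. It was at 3.10 and 4.79 normalized counts in lines #1 and #10 under DMSO, close to 4 and 5 reads, and was listed at 0 in lines #3 and #5. With trametinib it was at 17.6, 18.8, 1.61 and 28.9 in lines #1, #3, #5 and #10, about 18, 20, 2 and 30 reads. Lines #1, #3 and #10 were thus above all DMSO libraries, while line #5 stayed under the floor of 3 reads. Its mean over the libraries was 9.34, just below the filter, and it has no test in the fit reported here.

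Cd276 encodes B7-H3, a surface protein of many tumors, and lies on chromosome 9 from 58524298 to 58555437, on the minus strand. Its values with DMSO were 2316, 1008, 2205 and 1324 normalized counts in lines #1, #3, #5 and #10, and with trametinib 1883, 1969, 1915 and 1293. Line #3 went up, by 0.97 on the log2 scale, while lines #1, #5 and #10 went down by 0.30, 0.20 and 0.03. The log2 fold change over the 4 lines was 0.11 in limma (95% interval -0.39 to 0.61, adjusted p = 0.69), and it was -0.18 (limma adjusted p = 0.13) without line #3. In GENCODE, 416 exonic bases of Cd276 overlap Gm10657, whose highest value was 5.42 normalized counts.

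**Figure D2:**
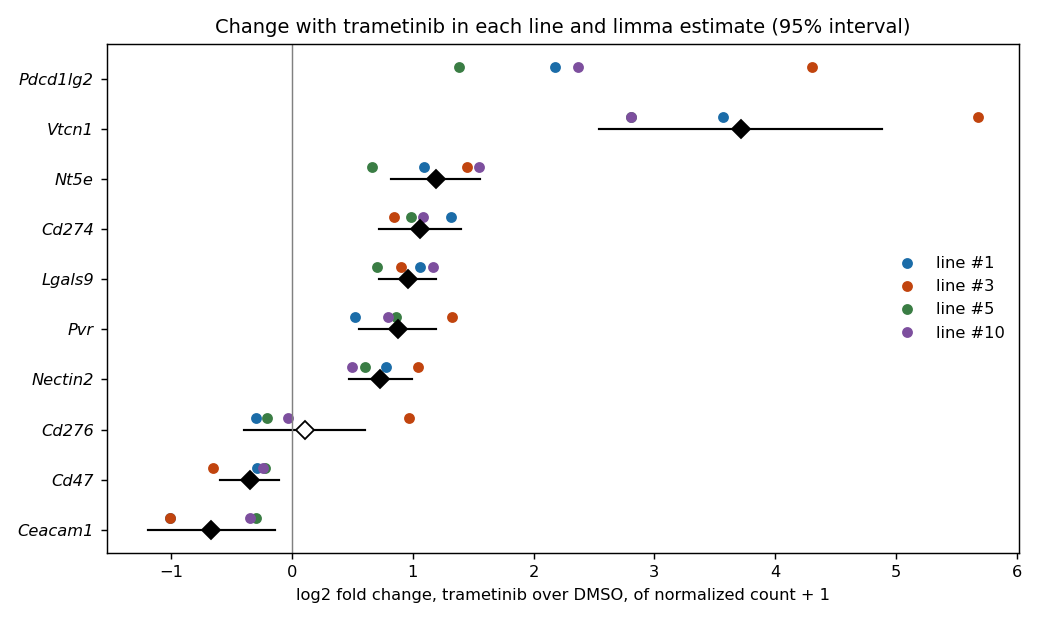
Log2 fold change of each gene with trametinib over DMSO, with coloured points for the 4 lines, black diamonds for the limma estimate and bars for its 95% interval. An open diamond marks the gene that did not pass (Cd276, 0.11), and Pdcd1lg2, which was not tested, has points only; Vtcn1 lies farthest right of the genes tested at 3.71 and Ceacam1 farthest left at -0.67.

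The pair of nectins that bind TIGIT and CD226 rose together. Nectin2, on chromosome 7 from 19716644 to 19750483 on the minus strand, stood at 1395, 1676, 2006 and 1917 normalized counts under DMSO (lines #1, #3, #5 and #10) and at 2393, 3457, 3055 and 2715 with trametinib. All trametinib libraries lay above all DMSO libraries. Its exons share 135 bases with those of the antisense gene Gm20512, which reached 3.72 at most. Its log2 fold change was 0.73 in limma (standard error 0.11, adjusted p = 0.0020), with line values from 0.50 to 1.04. Pvr, on chromosome 7 from 19903578 to 19921160 on the minus strand, encodes CD155 and stood at 3091, 1932, 2779 and 1158 with DMSO and at 4432, 4843, 5043 and 2016 with trametinib. The treatments overlapped because line #10 with trametinib was lower than lines #1 and #5 with DMSO. The log2 fold change of Pvr was 0.88 in limma (standard error 0.13, adjusted p = 0.0021), with line values from 0.52 to 1.33, and the adjusted p from limma without the line as a block was 0.11.

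Lgals9 and Nt5e, which act outside the B7 and nectin families, both rose. Lgals9 encodes galectin-9, a lectin proposed to bind the T cell receptor TIM-3, and lies on chromosome 11 from 78962974 to 78984946, on the minus strand. It stood at 3785, 3658, 4482 and 4761 normalized counts under DMSO (lines #1, #3, #5 and #10) and at 7902, 6835, 7289 and 10691 with trametinib, without overlap. The log2 fold change was 0.96 in limma (standard error 0.10, adjusted p = 0.00064).

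Nt5e encodes CD73, the enzyme that makes adenosine from AMP at the cell surface, and lies on chromosome 9 from 88327197 to 88372092, on the plus strand. Its values were 2741, 1079, 2500 and 1148 with DMSO and 5853, 2950, 3955 and 3368 with trametinib. Each trametinib library was above each DMSO library, by least between line #3 with trametinib and line #1 with DMSO. The log2 fold change was 1.19 in limma (standard error 0.15, adjusted p = 0.0012), from 0.66 in line #5 to 1.55 in line #10.

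Cd47 and Ceacam1 went the other way. Cd47, the signal that restrains phagocytosis through SIRPα on macrophages, lies on chromosome 16 from 49800533 to 49915010, on the plus strand. It stood at 3568, 2655, 3301 and 3095 normalized counts under DMSO (lines #1, #3, #5 and #10) and at 2918, 1691, 2837 and 2618 with trametinib. It was lower in each line, by most in line #3, and the treatments overlapped because line #3 was low with DMSO. Its log2 fold change was -0.35 in limma (standard error 0.10, 95% interval -0.59 to -0.11, adjusted p = 0.025).

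Ceacam1, an adhesion molecule that also signals inhibition in lymphocytes, lies on chromosome 7 from 25461707 to 25477603, on the minus strand. It stood at 93.5, 395, 159.7 and 35.2 with DMSO and at 45.9, 196, 129.6 and 27.5 with trametinib. Line #3 was highest and line #10 was lowest under both treatments, and the treatments overlapped. The log2 fold change was -0.67 in limma (standard error 0.22, 95% interval -1.19 to -0.14, adjusted p = 0.040). Its close relative Ceacam2 stood under the floor of 3 reads in every library, and how reads were split between the pair is not given.

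The calls of Cd47 and Ceacam1 each held in 7 of the 15 alternatives. With libraries rescaled to equal totals, which moved the median of all genes up by 0.13, their adjusted p from limma was 0.11 and 0.079, and without the line as a block 0.21 and 0.58. When single lines were left out, the limma adjusted p ran from 0.023 to 0.068 for Cd47, which passed without line #3, and from 0.051 to 0.14 for Ceacam1, which did not pass without any 1 of the lines. Both log2 fold changes were below 0 in each of the 15 alternatives.

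The lines themselves differed in 5 of the 9 genes tested, where the F-test of the line terms in limma called 27.6% of all genes. These were Ceacam1 (F = 37.8, adjusted p = 0.0046 in limma), Cd274 (F = 21.8, adjusted p = 0.011), Pvr (F = 20.5, adjusted p = 0.012), Nt5e (F = 12.9, adjusted p = 0.024) and Vtcn1 (F = 10.1, adjusted p = 0.034). With DMSO, the highest line exceeded the lowest by 11.2-fold for Ceacam1, 6.56-fold for Vtcn1 and 3.06-fold for Cd274, and by only 1.34-fold for Cd47 and 1.44-fold for Nectin2. No line was the highest for all genes. Line #3 was highest for Cd274 and Ceacam1 under both treatments, line #1 for Nt5e under both, and line #10 was lowest for Pvr under both. The calls of Cd274 and Ceacam1 held in each of the 13 alternatives that give this test, while that of Vtcn1 held in 8, that of Pvr in 11 and that of Nt5e in 11. Left out in turn, line #10 took the adjusted p of Pvr in limma to 0.50, line #1 took that of Nt5e to 0.11, and lines #1, #5 and #10 took that of Vtcn1 to 0.10, 0.056 and 0.067.

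Levels were compared between genes only after division by exonic length, as normalized counts per kb of exon in GENCODE. Whether the deposited values were already adjusted for transcript length is not given in the sources used here, and the order below takes them as not adjusted. With DMSO, Lgals9 was highest, at 1952 ± 250.2 per kb (SD, n = 4 lines), and its 4 libraries lay above those of every other gene of the group. Then came Cd47 at 503 ± 61.5, Nectin2 at 500.4 ± 78.4, Cd276 at 468 ± 177, Pvr at 366 ± 142 and Nt5e at 217 ± 102 per kb (SD, n = 4 lines each), and neighbours in this order overlapped in range. Cd274 followed at 57.9 ± 31.7, below every value of Nt5e, then Ceacam1 at 29.4 ± 27.2 and Vtcn1 at 9.15 ± 8.55 per kb, with ranges that overlapped between neighbours. Pdcd1lg2 was lowest, at 0 to 2.44 per kb, below every value of Vtcn1. With trametinib, Vtcn1 reached 25.3 to 424 per kb and overlapped with Cd274 at 72.9 to 184, and its level in lines #1 and #3 exceeded that of Cd274 in the same lines (260 and 424 per kb for Vtcn1, 83.8 and 184 for Cd274). In lines #5 and #10, Vtcn1 stayed below Cd274.

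**Figure D3:**
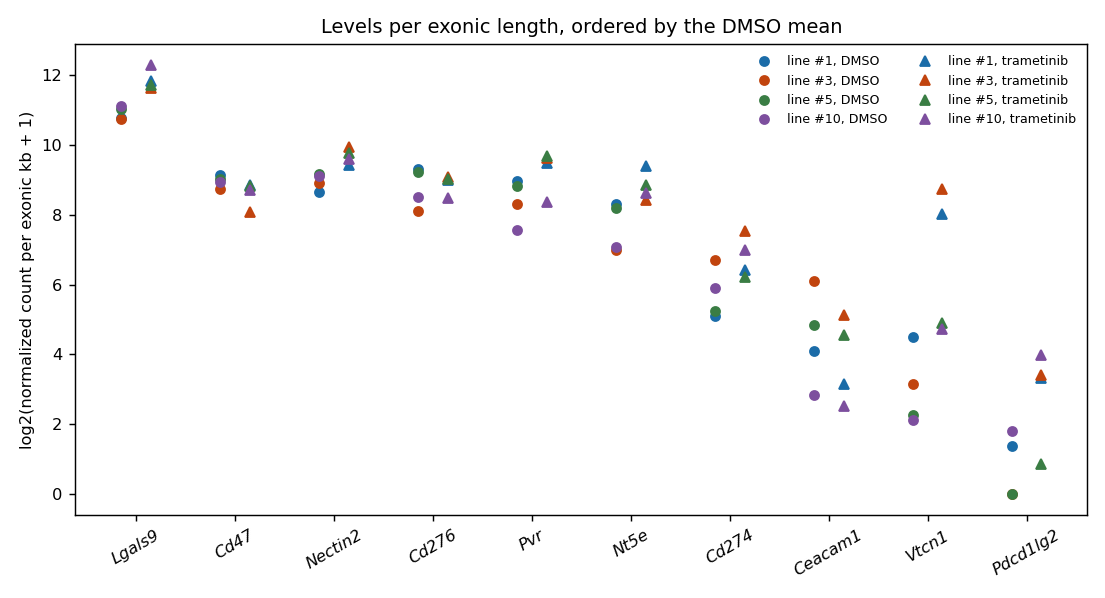
Level of each gene as log2(normalized count per kb of exon + 1), ordered by the DMSO mean, with circles for DMSO, triangles for trametinib and 1 colour per line. Lgals9 lies above all others under both treatments, and Vtcn1 spans 25.3 to 424 per kb with trametinib.

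The 5 genes whose levels followed Vtcn1 most closely over the 8 libraries were Aamdc, Fgd2, Slc44a3, Ltbp4 and Nat8l, with Pearson r from 0.98 to 0.99 on log2(normalized count + 1). Of these, Fgd2 stood at 1.96 to 4.97 normalized counts with DMSO and passed the filter only through its trametinib values. For Cd274 they were Pigc, 1600012H06Rik, Wfs1, Lmbrd1 and Acsf2, with r of 0.99 for each. The libraries are pairs from 4 lines and share the treatment, so these values are a description only. Nat8l was the nearest to Vtcn1 in size of change, from 93.1, 34.9, 16.4 and 17.8 with DMSO to 992, 1301, 255 and 169.9 with trametinib in lines #1, #3, #5 and #10.

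Genes that control PD-L1 or transmit interferon signals were listed beside Cd274. Of 16 such regulators, all tested, 10 rose and 3 fell, where 27.3% of all genes were higher and 25.6% lower, and the median log2 fold change was 0.44, against 0.07 over all genes. The largest rises were those of the AP-1 subunit Jun, with a log2 fold change of 1.76 (limma adjusted p = 0.0038), and of the transcription factor Stat3, at 1.12 (limma adjusted p = 0.00049). The largest falls were those of Myc, at -1.01 (limma adjusted p = 0.00031), and of Cmtm6, which keeps PD-L1 protein at the surface, at -0.48 (limma adjusted p = 0.0082). The interferon regulatory factor Irf1 rose by 0.40 on the log2 scale, with an adjusted p of 0.049 in limma. These lists were chosen with results of these data known.

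Of 4 other genes of the B7 family, 1 passed the filter and 0 were called, where 27.3% of all genes were higher and 25.6% lower. Vsir, below the filter and not tested, averaged 2.81 normalized counts with DMSO and 15.1 with trametinib. It was higher in 4 of 4 lines, by most in line #10 (from 2.70 to 37.0), but in line #3 only from 7.43 to 7.91. With DMSO, lines #1, #5 and #10 stood at or under the floor of 3 reads. The T cell costimulators Cd80 and Cd86 were under the floor of 3 reads in every library, and Icosl changed by a log2 value of -0.52 (95% interval -1.28 to 0.24, adjusted p = 0.21 in limma). Of 6 nectins and partners, 5 were tested and 2 rose (27.3% of all genes did), Nectin3 by 0.51 (limma adjusted p = 0.0047) and Cadm4 by 1.81 (limma adjusted p = 0.0047).

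Among the genes around Nt5e that make, carry or sense adenosine, 11 of 14 were tested, 1 rose and 3 fell, where 27.3% of all genes were higher and 25.6% lower. Entpd2, which splits ATP upstream of CD73, went from 87.6 ± 40.3 to 400.1 ± 187 normalized counts (SD, n = 4 lines), for a log2 difference of 2.15 (limma adjusted p = 0.00038). Entpd1, which encodes CD39 and makes AMP from ATP, was below the filter. The nucleoside carrier Slc29a1 went from 6297 ± 399.6 to 1081 ± 234 normalized counts (SD, n = 4 lines), for a log2 difference of -2.56 (limma adjusted p = 9.4e-05). The receptor Adora2a changed by a log2 value of -1.59 (limma adjusted p = 0.0013).

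A list of 8 genes held other galectins and Lgals3bp, a protein that binds galectin-3 and is not itself a galectin. Of these, 6 were tested, 4 fell and 1 rose, with a median log2 fold change of -1.04, and the gene not called was Lgals3bp. Over all genes, 25.6% were lower and 27.3% higher. Lgals2 and Lgals4 fell most, with log2 fold changes of -1.83 and -1.29 (limma adjusted p = 0.0032 and 0.0084), and Lgals8 rose by 0.71 (limma adjusted p = 0.0056). Of 7 genes that bear on phagocytosis beside Cd47, all tested, 4 rose and 0 fell, where 27.3% of all genes were higher and 25.6% lower. Among the 7, Sirpa was not called. It averaged 9.63 normalized counts with DMSO and passed the filter only through trametinib, so its test is not read as a result. The rises were led by Thbs1, a secreted ligand of CD47, at 3.64 (limma adjusted p = 0.00054) and by the phagocytic receptor Lrp1 at 2.34 (limma adjusted p = 9.4e-05). The count of 0 is from limma, and of the 3 genes not called the lowest log2 fold change was 0.15, for Qpctl.

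**Figure D4:**
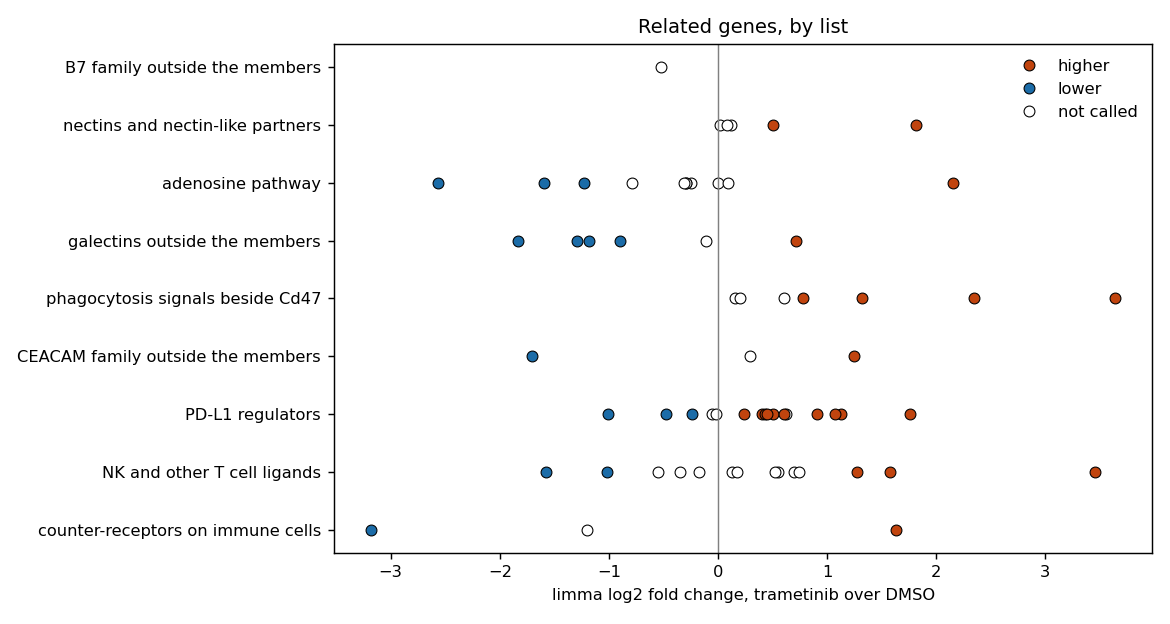
Limma log2 fold change with trametinib over DMSO of the related genes that passed the filter, 1 point per gene and 1 row per list, filled where the adjusted p was under 0.05. Fas, H60c and Sirpa passed the filter only through trametinib and Havcr2 only through DMSO, so their points are not read as results. Of the 6 genes tested in the galectin list, which includes Lgals3bp, 4 lie to the left of 0 as called lower, and of the 7 phagocytosis genes 4 lie to the right as called higher.

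Receptors for these ligands, which are known from T cells and NK cells, were looked for as a sign of other cells. Of 12 listed, 11 were in the table and 8 of them stood at 10 normalized counts or lower in every library, among them Pdcd1, which encodes PD-1, and Cd96. Tigit, the receptor of Pvr and Nectin2, did not follow them. It stood at 845, 536, 837 and 2204 normalized counts under DMSO (lines #1, #3, #5 and #10) and at 92.2, 68.9, 126 and 149.6 with trametinib, without overlap. Its log2 fold change was -3.18 in limma (standard error 0.20, adjusted p = 0.00020) while its ligands rose. Tigit lies on chromosome 16 from 43648867 to 43664146, on the minus strand.

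The inhibitory receptor Lag3 rose from 21.5 ± 13.0 to 68.1 ± 35.6 normalized counts (SD, n = 4 lines), for a log2 difference of 1.63 (limma adjusted p = 0.0030). Without the line as a block its limma adjusted p was 0.065. Havcr2, which encodes TIM-3, went from 114, 1.10, 53.3 and 15.9 to 11.5, 4.94, 8.58 and 10.1 in lines #1, #3, #5 and #10, higher in line #3 only. It averaged 8.78 with trametinib, below the filter, and passed it only through its DMSO values, so no test is given. In the same libraries the T cell gene Cd3e stood near 0, Ptprc at 4.05 to 17.2 and Cd14 at 907 to 3571 normalized counts, and Csf1r went from 18.9 ± 19.8 to 139 ± 141 (SD, n = 4 lines; limma adjusted p = 0.00070). The part of other cells in the values of Tigit, Lag3 and Havcr2 was not tested.

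**Figure D5:**
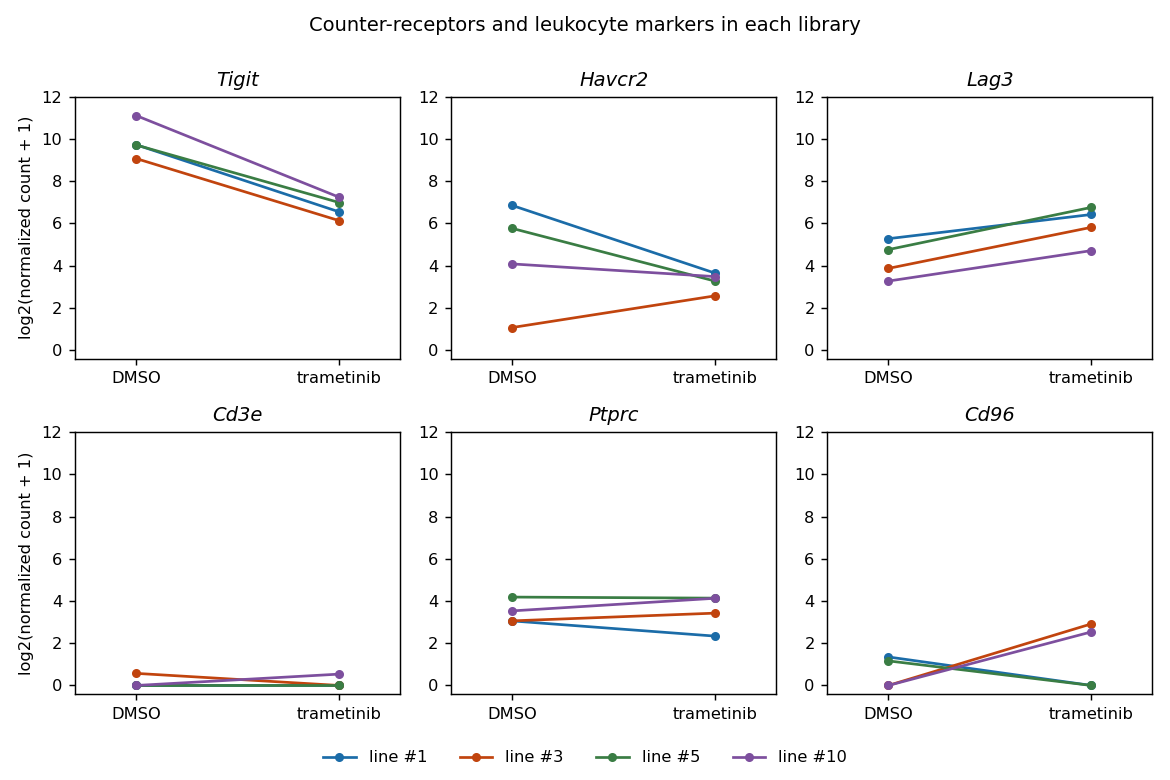
Levels as log2(normalized count + 1) of 3 receptors (Tigit, Havcr2, Lag3), the leukocyte markers Cd3e and Ptprc and the receptor Cd96, with DMSO and trametinib, 1 coloured line per cell line and 1 common axis. Tigit lies at 536 to 2204 normalized counts with DMSO and at 68.9 to 149.6 with trametinib, while Cd3e stays at 0.488 or lower.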

How the data were processed

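RNA was sequenced from 4 primary PDAC lines with DMSO or trametinib, 1 library each. The authors deposited normalized counts per gene, a signal that they scaled between libraries and that is not whole. The submitters' processing notes name CASAVA 2.17, Salmon 0.12, DESeq2 1.18 and the build mm10. The role of each tool is not given in the sources used here. Low values pile up at steps of 0.774 to 1.24 normalized counts, taken as 1 read, but only 51.7% to 68.4% of values under 20 steps lay within 0.05 of a whole step, so no count test was run.

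Values were transformed as log2(normalized count + 1) and fitted in limma 3.58.1 (R 4.3.3) with lmFit and eBayes with trend, for the 15888 genes whose mean reached 10. The cell line was the block, since both libraries of a number come from the same line (correlation of deviations from treatment means 0.63 to 0.72 across genes). Differences between lines were tested with the F-test of the line terms in that fit. P-values are two-sided and adjusted by the Benjamini-Hochberg method over all genes tested, with a threshold of 0.05. The fit was tested on simulated data. Python 3.11.15, pandas 2.3.3, numpy 2.4.6 and matplotlib 3.10.9 were used.

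Positions and exonic lengths are those of GENCODE M21 on GRCm38, the same build as mm10, matched by symbol. Upstream sequences are from RefSeq on GRCm38.p6. Alternatives were pseudocounts of 0.1 and 5, 3 other scalings, no filter, a filter at 50, no block, other eBayes settings, a minimum change of 2-fold and leaving out each line. Named genes are the 10 members, up to 2 risers and 2 fallers per related list, the 5 genes most like Vtcn1 and Cd274, neighbours of called members, and Dusp6 and Spry4. Other genes named were picked with their values in view. The members, lists and motifs were chosen with earlier results of these data known. One allele of the mice is not reported here.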

Additional observations from a re-analysis of the deposited data

Results flagged for a closer look

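In 30 groups of 4 values a line set apart from the rest was sought, the 10 genes each with DMSO, with trametinib and as a log2 fold change, and 2 were found, where chance gives about 1 in 20, or 1.5. Cd276 with trametinib stood at 1293 normalized counts in line #10, against 1883 to 1969 in lines #1, #3 and #5. Cd47 changed by a log2 value of -0.65 in line #3, against -0.29 to -0.22 in the other lines. Cd276 also moved in opposite directions, with a log2 fold change of 0.97 in line #3 and of -0.30 to -0.03 in lines #1, #5 and #10. That difference between lines was not tested, since each line has 1 library per treatment.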

How the results depend on the processing

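The call of Vtcn1 held in each of the 15 alternatives, with a log2 fold change of 3.06 to 4.02 and an adjusted p from limma of at most 0.025. Lgals9, Nectin2 and Nt5e lost their calls only with a minimum change of 2-fold, and Cd274 and Pvr with that and without the block. Members called lower, 2 as reported, numbered 0 with libraries rescaled to equal totals, without the block and with a minimum change of 2-fold, and 1 with quantile normalization, no filter or eBayes without trend. With the lines left out in turn they numbered 0 to 1, with 0 without line #1, #5 or #10. At an unadjusted p under 0.05 in limma, these counts of 0 became 1 with equal totals and without line #1, 2 without line #5 or #10, and stayed 0 without the block and with the 2-fold minimum. A minimum change of 2-fold left 1 member higher, 4 related genes higher and 2 lower, and 557 and 176 of all genes. The related genes tested include Fas and H60c, which passed the filter only through trametinib, so counts of related genes called higher are not read as results. Without the replicate block, which ignores the pairing by line, 14 related genes were higher and 7 lower, against 23 and 14 with it, and 2205 and 2347 of all genes, against 4341 and 4075. The 23 take in Fas and H60c. Members that differ between lines, 5 as reported, numbered 2 with eBayes without trend and 3 to 7 with lines left out. All genes that differ between lines, 4391 as reported, numbered 2862 without a filter, 1879 without trend and 2028 to 4558 with lines left out. With lines left out, the log2 fold change of Cd276 ran from -0.18 without line #3, where its sign turned, to 0.24 without line #1. Quantile normalization moved the median of all genes by -0.10. Without a filter, Pdcd1lg2 entered the test, but it stood at only 0 to 4.79 normalized counts with DMSO. Its call there is not read as a result. In the fit without line #5 it passed the filter only through its trametinib values, so that call, the 7th member higher there, is not read as a result. The causes of these shifts were not tested. Depth limits Pdcd1lg2 in all libraries and Vtcn1 with DMSO in lines #5 and #10.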

Other observations

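Genes next to the members on the chromosome were compared with them. The start of Plgrkt, a receptor for plasminogen on the minus strand, lies 64 bases from that of Cd274 in GENCODE, so both genes point away from each other. Plgrkt stood at 771, 1382, 761 and 1176 normalized counts under DMSO (lines #1, #3, #5 and #10) and at 1868, 2407, 1677 and 2658 with trametinib. Its log2 difference was 1.10 (SE 0.11, limma adjusted p = 0.00054), beside 1.06 for Cd274. Igsf23, next to Pvr, changed by a log2 value of 2.58 (limma adjusted p = 0.00014). Tomm40, 1205 bases from Nectin2, fell by 1.07 (limma adjusted p = 0.0012). Of the 16 nearest coding neighbours of the 8 members called, 12 were tested. One of them, Cxcl17, averaged 8.54 normalized counts with DMSO and passed the filter only through trametinib, so no count of calls is given.

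Among ligands of T cells and NK cells outside the group, 14 of 18 passed the filter. Of these, Fas and H60c averaged below the filter of 10 normalized counts with DMSO and were tested only through their trametinib values, so their values are given without a test. The death receptor Fas went from 4.57 ± 1.73 to 85.2 ± 70.5 normalized counts (SD, n = 4 lines). The NKG2D ligand H60c stood at 1.27, 12.3, 2.03 and 7.83 with DMSO and at 9.32, 74.8, 9.16 and 7.07 with trametinib in lines #1, #3, #5 and #10, with line #3 the highest under both treatments. The adhesion molecule Icam1 rose by 1.27 (limma adjusted p = 0.00041). The costimulatory ligand Tnfsf9 changed by a log2 value of -1.58 (limma adjusted p = 0.00050), and Ido1, which breaks down tryptophan, of -1.01 (limma adjusted p = 0.041).

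Of 8 other CEACAM genes, 3 were tested, and 1 was higher and 1 lower, where 27.3% of all genes were higher and 25.6% lower. Ceacam20 rose by 1.25 on the log2 scale (limma adjusted p = 0.011), and Ceacam16 fell by 1.71 (limma adjusted p = 0.0068).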
